A study of Mus musculus with 2 samples.

Results

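The 45 glutamate and GABA receptor subunit genes of the mouse were described in RNA-seq from P12 optic nerve. They were chosen by symbol alone, as every gene that encodes a subunit of an AMPA (4 genes), kainate (5), NMDA (7), metabotropic glutamate (8), GABA-A (19) or GABA-B (2) receptor, among 23951 gene symbols found in both libraries. There was 1 library from control optic nerves (genotype given as Tcf7l2 c/+; OLig1-cre, at P12) and 1 from Tcf7l2ΔHMG optic nerves (Tcf7l2 c/c; OLig1-cre, at P12). Both genotypes thus carried the *Olig1*-Cre driver, which is expressed in the oligodendrocyte (OL) lineage, and the control had lost 1 copy of the floxed exon that encodes the DNA-binding HMG box of Tcf7l2, a transcription factor of the Wnt pathway. The number of nerves pooled per library is not given in the sources used here. With 1 library per genotype no difference has a replicate check, and the Cufflinks interval printed beside each value covers sampling within a library and not variation between animals.

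Glutamate and GABA are the main excitatory and inhibitory transmitters of the central nervous system. AMPA, kainate and NMDA receptors are tetrameric cation channels opened by glutamate, GABA-A receptors are pentameric chloride channels, and metabotropic glutamate and GABA-B receptors signal through G proteins. In white matter such as the optic nerve there are axons but hardly any neuronal cell bodies, and OL precursor cells (OPCs), OLs and astrocytes all carry some of these receptors. OPCs in particular receive synaptic input through AMPA and GABA-A receptors, which they lose as they mature.

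The tissue was checked with marker lists. The summed level of 8 markers of myelinating OLs was 29308 FPKM in the control and 16803 in the Tcf7l2ΔHMG library (FPKM, a level corrected for transcript length and library size), and that of 8 astrocyte markers 5322 and 6239. Of 8 retinal markers 7 were below 1 FPKM in both libraries, the other being *Rlbp1*, which glia also express (10.6 and 13.7 FPKM). *Tcf7l2* itself was at 17.8 FPKM in the control (interval 16.7 to 18.9) and 14.6 in Tcf7l2ΔHMG (13.9 to 15.4), which is no check of the genotype because the excision leaves the rest of the transcript in frame. Depth, read from the bounds of the intervals of short unnamed rows, was 27624000 fragments in the control and 39938000 in Tcf7l2ΔHMG, so that 3 fragments on 1 kb amount to 0.109 and 0.0751 FPKM. In whole nerve, fewer cells of a type and less RNA per cell cannot be told apart.

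All 45 subunits had a row of their own in both libraries, and 3 of them (*Grin3b*, *Gabrp* and *Gabrr3*) were listed at 0 in both. In the control library *Gria1* was highest at 53.7 FPKM, followed by *Gabbr1* at 47.7, *Grik5* at 18.3, *Gria2* at 15.9, *Grik3* at 13.8, *Gria4* at 12.4 and *Gria3* at 9.13, and none of these intervals overlapped with the next in order. The Tcf7l2ΔHMG library began with *Gria1*, *Gabbr1*, *Grik5* and *Gria2* in the same order, and *Gria2* and *Gria4* (11.6 and 11.4 FPKM) could not be separated there by their intervals. *Grik2* held rank 8 in the control and rank 14 in Tcf7l2ΔHMG, and *Grik1* ranks 13 and 22. From *Grik1* down to *Gabra3* in the control (ranks 13 to 16), and from *Grik4* down to *Gabra3* in Tcf7l2ΔHMG (ranks 10 to 16), every interval overlapped with the next.

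**Figure D1:**
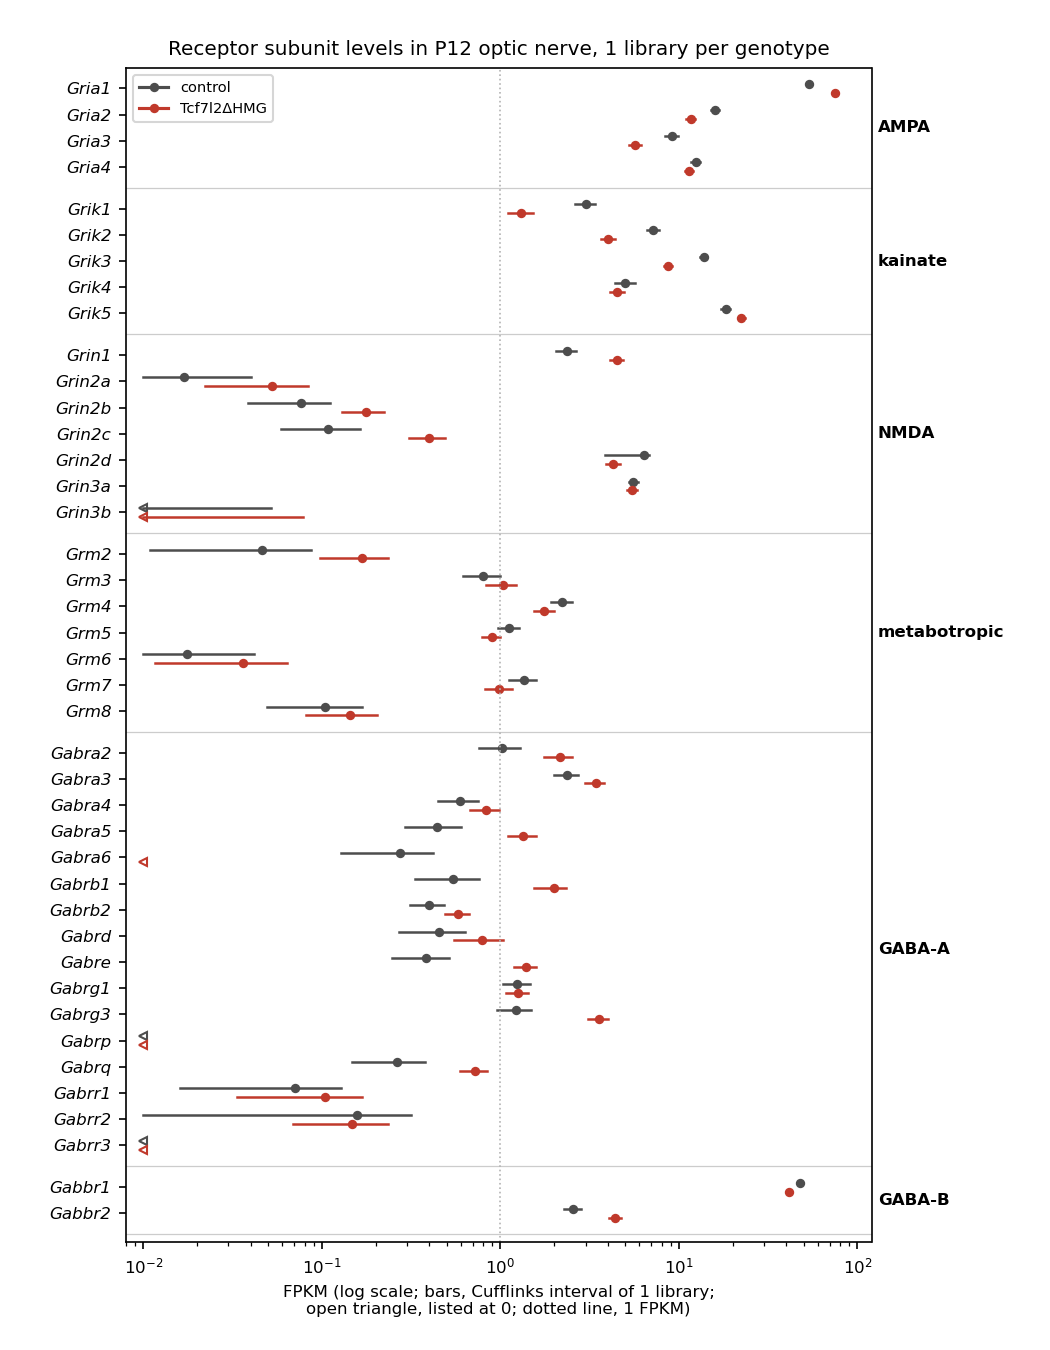
FPKM (x axis, log scale) of 41 of the 45 subunits (y axis, by class) in the control (grey) and Tcf7l2ΔHMG (red) library; points are the deposited values, bars the Cufflinks intervals, open triangles at the left edge genes listed at 0 and the dotted line 1 FPKM. The red points lie to the left of the grey ones for *Grik1*, *Grik2* and *Grik3* and to the right for most GABA-A subunits.

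A level of 1 FPKM or more was reached by 26 subunits in either library, and by 20 in both. Log2 ratios of Tcf7l2ΔHMG to control were computed after 0.1 FPKM was added, and a fold change of 1.5, the cutoff the study uses for its RNA-seq, marked a difference. Of the 26 subunits 7 were higher in Tcf7l2ΔHMG past this cutoff, beside 15.4% of the 14199 genes measured at that level, and 4 were lower, beside 8.52%. The median log2 ratio of the 26 was −0.0043, and that of all 14199 genes 0.05. Since *Gabra5*, *Gabrb1* and *Gabre* reached 1 FPKM in Tcf7l2ΔHMG only and had to be higher there, the count was repeated over the 20 subunits with at least 1 FPKM in both libraries, of which 4 were higher (12.2% of all such genes) and 4 lower (7.22%). Over all 45 subunits, 18 had a control interval apart from the Tcf7l2ΔHMG interval and were higher in Tcf7l2ΔHMG (20.0% of all genes), and 7 had intervals apart and were lower (13.7%). The scale of the libraries bears on all directions below. Rescaling all rows of each library, unnamed ones included, to a common sum shifted the median log2 ratio of all genes from 0.05 to −0.63. Subunits of at least 1 FPKM that are reported here and whose direction this turned are named in their paragraphs. Single partner and marker genes, and subunits below 1 FPKM, were not recomputed on that scale, and their directions hold as deposited only.

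**Figure D2:**
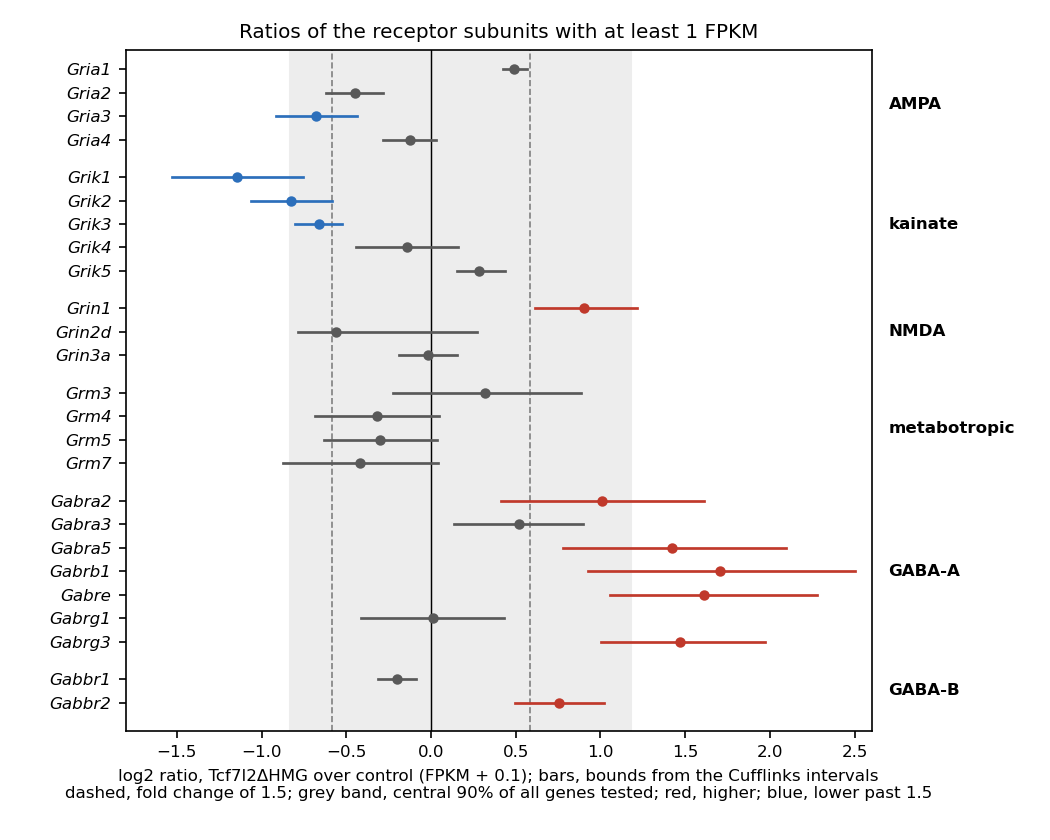
Log2 ratio of Tcf7l2ΔHMG to control (x axis) for 25 of the 26 subunits with at least 1 FPKM (y axis, by class); points are ratios, bars the bounds given by the Cufflinks intervals, dashed lines a fold change of 1.5 and the grey band the central 90% of all genes tested (−0.83 to 1.18). Blue points (lower past the cutoff) are *Gria3* and the kainate subunits *Grik1*, *Grik2* and *Grik3*, and red points (higher) are *Grin1*, *Gabbr2* and 5 GABA-A subunits.

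The AMPA receptor genes were the most abundant class, and their make-up differed between the libraries. *Gria1*, which encodes GluA1, was at 53.7 FPKM (interval 52.5 to 55.8) in the control and 75.4 FPKM (74.8 to 77.9) in Tcf7l2ΔHMG. *Gria2*, which encodes the subunit whose RNA is edited to make the channel impermeable to calcium, was at 15.9 FPKM (15.1 to 16.8) in the control and 11.6 FPKM (10.9 to 12.4) in Tcf7l2ΔHMG. *Gria3* was at 9.13 FPKM (8.34 to 9.92) and 5.67 FPKM (5.23 to 6.13), and is the only AMPA subunit past the cutoff, with a log2 ratio of −0.68 (bounds −0.91 to −0.44). *Gria1* was thus higher and *Gria2* and *Gria3* lower in Tcf7l2ΔHMG, each without overlap of the intervals. The log2 ratio of *Gria1* was 0.49 (0.42 to 0.57) and that of *Gria2* −0.45 (−0.62 to −0.28), both short of the cutoff, and with all rows rescaled *Gria1* turned to −0.18. *Gria4* was at 12.4 FPKM (11.7 to 13.2) and 11.4 FPKM (10.8 to 11.9), with overlapping intervals. Shares within the class do not depend on the scale of a library. *Gria1* made up 58.9% of the summed AMPA subunit FPKM in the control and 72.4% in Tcf7l2ΔHMG, *Gria2* 17.5% and 11.2%, *Gria3* 10.01% and 5.45%, and *Gria4* 13.6% and 10.9%. The sum itself was 91.2 FPKM in the control and 104 in Tcf7l2ΔHMG (log2 ratio 0.19, or −0.48 with all rows rescaled).

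Of 20 genes for AMPA receptor auxiliary subunits and trafficking proteins, 15 reached 1 FPKM, 6 were higher past the cutoff (40%, beside 15.4% of all genes) and 1 was lower (6.67%, beside 8.52%), with a median log2 ratio of 0.42. With 1 FPKM in both libraries 4 of 13 were higher (12.2% of all such genes) and 1 was lower (7.22%). The auxiliary subunit gene *Cacng7* was at 46.2 and 48.7 FPKM and the neuronal pentraxin receptor gene *Nptxr* at 29.3 and 42.5 FPKM, neither of them past the cutoff. *Cnih2*, a cornichon protein that slows the channel, was at 6.81 FPKM in the control and 13.7 in Tcf7l2ΔHMG (log2 ratio 0.997), while its relative *Cnih3* was at 1.77 and 1.07 FPKM (−0.68). The Tcf7l2ΔHMG value of *Cnih2* lay above its own interval (10.9 to 13.3). *Pick1*, which binds the tails of GluA2 and GluA3, was at 19.2 and 44.0 FPKM (1.19). The others past the cutoff were higher in Tcf7l2ΔHMG, namely *Cacng3* (0.192 and 1.02 FPKM), *Cacng5* (1.55 and 2.55), *Nptx2* (0.817 and 1.67) and *Shisa7* (3.61 and 7.18), whose control interval of 3.12 to 16.6 FPKM held the Tcf7l2ΔHMG value. The delta receptor gene *Grid1* (5.24 and 4.93 FPKM), related to the ionotropic glutamate receptors, did not pass the cutoff.

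Of the kainate receptor genes, *Grik1*, *Grik2* and *Grik3* passed the cutoff, and *Grik4* and *Grik5* did not. With all rows rescaled each of them had a log2 ratio below 0. *Grik1*, *Grik2* and *Grik3* encode GluK1, GluK2 and GluK3, which can form channels by themselves, and all were lower in Tcf7l2ΔHMG past the cutoff. *Grik1* was at 3.01 FPKM (2.63 to 3.38) in the control and 1.31 (1.11 to 1.52) in Tcf7l2ΔHMG, a log2 ratio of −1.14 (−1.53 to −0.76). *Grik2* was at 7.19 FPKM (6.60 to 7.78) and 4.01 (3.67 to 4.37), a log2 ratio of −0.83 (−1.06 to −0.58). *Grik3* was at 13.8 FPKM (13.2 to 14.4) and 8.67 (8.22 to 9.11), a log2 ratio of −0.66 (−0.81 to −0.53). The span of *Grik3* also holds the row of the microRNA gene *Mir692-2b*, listed at 1128 and 1142 FPKM, and reads of overlapping genes cannot be told apart without strand. The intervals of the 3 subunits did not overlap between the libraries, and all stayed below 0 under each scaling tried. Among all genes tested, 97.1% had a higher log2 ratio than *Grik1*, 95% a higher one than *Grik2* and 92.9% a higher one than *Grik3*. *Grik4* and *Grik5* encode GluK4 and GluK5, which bind glutamate with high affinity and need a partner of the first kind to form a channel. *Grik4* was at 5.01 FPKM (4.40 to 5.64) and 4.53 (4.13 to 4.94), with overlapping intervals, and *Grik5* at 18.3 FPKM (17.3 to 19.3) and 22.3 (21.5 to 23.4), a log2 ratio of 0.28 (0.15 to 0.43) that turned to −0.38 with all rows rescaled. The summed FPKM of *Grik1*, *Grik2* and *Grik3* was 24.0 in the control and 14.0 in Tcf7l2ΔHMG (log2 ratio −0.77), and that of *Grik4* and *Grik5* 23.3 and 26.8 (0.20). *Grik5* thereby made up 38.7% of the kainate sum in the control and 54.6% in Tcf7l2ΔHMG. The auxiliary subunit genes *Neto1* (2.33 and 2.23 FPKM) and *Neto2* (3.07 and 2.68) did not pass the cutoff.

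NMDA receptors contain the obligatory subunit GluN1, encoded by *Grin1*, together with GluN2 or GluN3 subunits. *Grin1* was at 2.36 FPKM (2.05 to 2.67) in the control and 4.50 FPKM (4.13 to 4.88) in Tcf7l2ΔHMG, a log2 ratio of 0.90 (0.61 to 1.21) that dropped to 0.25 with all rows rescaled. It was the only NMDA subunit with at least 1 FPKM that passed the cutoff. The main partner genes were *Grin2d* and *Grin3a*, both of which are known from glial precursors and the young brain. *Grin2d* was at 6.36 FPKM (3.84 to 6.80) and 4.28 (3.90 to 4.67), a log2 ratio of −0.56 with overlapping intervals, and the control value lay near the top of a wide interval. *Grin3a* was at 5.56 FPKM (5.23 to 5.89) and 5.48 (5.14 to 5.82), and a difference was not detectable. *Grin1* was thus below both partners in the control library while its interval overlapped that of *Grin2d* in Tcf7l2ΔHMG. The GluN2 genes typical of neurons were near the limit of detection. *Grin2a* was at 0.0168 and 0.0523 FPKM, *Grin2b* at 0.0769 (0.0386 to 0.111) and 0.178 (0.130 to 0.224) FPKM, and *Grin2c*, which astrocytes and cerebellar cells express, at 0.108 (0.0592 to 0.163) and 0.400 (0.307 to 0.491) FPKM. The intervals of *Grin2b* and *Grin2c* did not overlap, but the width of the control intervals corresponds to only 17 and 18 fragments if counting error were all they held. *Grin3b* was listed at 0 in both libraries, and its span overlaps that of *Tmem259*, which was at 39.9 and 50.5 FPKM. The NMDA sum was 14.5 FPKM in the control and 14.9 in Tcf7l2ΔHMG (log2 ratio 0.04, or −0.62 with all rows rescaled).

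The metabotropic glutamate receptor genes were low, with a sum of 6.02 FPKM in the control and 5.33 in Tcf7l2ΔHMG, and none of the 4 with at least 1 FPKM passed the cutoff. Of group I, which activates phospholipase C, *Grm5* was at 1.12 FPKM (0.973 to 1.27) and 0.892 (0.787 to 1.001). Of group II, which inhibits adenylyl cyclase, *Grm3* was at 0.804 FPKM (0.614 to 0.993) and 1.03 (0.836 to 1.22). Of group III, which acts in the same way, *Grm4* was at 2.23 FPKM (1.93 to 2.54) and 1.77 (1.54 to 1.99), and *Grm7* at 1.36 (1.12 to 1.59) and 0.988 (0.820 to 1.16). All of these intervals overlapped between the libraries, and with all rows rescaled the log2 ratio of *Grm3* turned from 0.32 to −0.26. The intervals were apart only for *Grm2*, at 0.0464 FPKM (0.0109 to 0.0872) in the control and 0.169 (0.0980 to 0.234) in Tcf7l2ΔHMG, which amounts to about 7 and 24 fragments. *Grm6*, the glutamate receptor of retinal ON bipolar cells, was at 0.0175 and 0.0364 FPKM, and *Grm8* at 0.104 and 0.144 FPKM.

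Of 24 genes for scaffold and signalling proteins of glutamate receptors, 23 reached 1 FPKM, 4 were higher past the cutoff and 1 was lower (median log2 ratio 0.20). These are 17.4% and 4.35% of the 23, beside 15.4% and 8.52% of all genes. With 1 FPKM in both libraries 2 of 21 were higher (12.2% of all such genes) and 1 was lower (7.22%). *Camk2a*, the kinase subunit of excitatory synapses, differed most, from 1.08 FPKM (0.883 to 1.27) in the control to 5.49 FPKM (5.08 to 5.90) in Tcf7l2ΔHMG, a log2 ratio of 2.25. *Camk2b* (4.0 and 7.50 FPKM), *Shank2* (0.746 and 1.43) and *Dlgap3* (0.902 and 1.78), the last pair scaffold proteins of the postsynaptic density, were also higher, and *Plcb4*, a phospholipase C, was lower (7.52 and 4.56 FPKM). Among 18 genes of glutamate transport and metabolism, 14 reached 1 FPKM, of which 1 was higher (7.14%, beside 15.4% of all genes) and 2 were lower (14.3%, beside 8.52%) past the cutoff. *Slc1a1*, a glutamate transporter, was at 48.8 and 25.2 FPKM, while *Glul*, the glutamine synthetase that removes glutamate, was at 249 and 417 FPKM. The glial glutamate transporter genes *Slc1a3* (288 and 310 FPKM) and *Slc1a2* (50.6 and 63.6 FPKM) stayed below the cutoff.

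Of the 19 GABA-A subunit genes 15 had a higher FPKM in the Tcf7l2ΔHMG library, 2 were lower and 2 were listed at 0 in both. Over all genes, 10808 of 23951 had a higher FPKM in that library and 8228 a lower one. Of the 19, 11 were higher with intervals apart (20.0% of all genes) and 1 was lower with intervals apart (13.7%). Of the 8 with at least 1 FPKM in either library, 5 were higher past the cutoff (62.5%, beside 15.4% of all genes) and none lower. With 1 FPKM in both libraries 2 of 5 were higher (12.2% of all such genes). Among the alpha subunits, which together with beta subunits form the GABA binding site, *Gabra2* was at 1.03 FPKM (0.757 to 1.29) in the control and 2.17 (1.75 to 2.52) in Tcf7l2ΔHMG, a log2 ratio of 1.01 (0.41 to 1.61). *Gabra5* was at 0.440 FPKM (0.293 to 0.601) and 1.34 (1.10 to 1.58), a log2 ratio of 1.42 (0.78 to 2.10). *Gabra3*, the most abundant alpha gene, was at 2.36 FPKM (1.99 to 2.72) and 3.42 (3.0 to 3.80), short of the cutoff at 0.52 (0.14 to 0.90) and at −0.13 with all rows rescaled. *Gabra4* was at 0.595 and 0.831 FPKM with overlapping intervals. *Gabra6*, known from cerebellar granule cells, was at 0.273 FPKM (0.128 to 0.417) in the control, about 14 fragments, and was listed at 0 in Tcf7l2ΔHMG.

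Of the beta subunits, *Gabrb1* was at 0.547 FPKM (0.331 to 0.759) in the control and 2.01 (1.53 to 2.34) in Tcf7l2ΔHMG, a log2 ratio of 1.71 (0.93 to 2.5). *Gabrb2* was at 0.399 FPKM (0.312 to 0.484) and 0.579 (0.491 to 0.670), and as deposited both were higher in Tcf7l2ΔHMG without overlap of the intervals. Of the gamma subunits, which place receptors at synapses, *Gabrg3* was at 1.22 FPKM (0.952 to 1.49) and 3.56 (3.09 to 4.03), a log2 ratio of 1.47 (1.0 to 1.97). As deposited *Gabrg1* did not differ detectably, at 1.24 FPKM (1.04 to 1.46) and 1.26 (1.07 to 1.44). Its log2 ratio of 0.01 turned to −0.57 with all rows rescaled. *Gabre*, which encodes the epsilon subunit, was at 0.385 FPKM (0.246 to 0.519) and 1.38 (1.19 to 1.58), a log2 ratio of 1.61 (1.06 to 2.28), and *Gabrq*, the theta subunit, at 0.263 (0.147 to 0.380) and 0.719 (0.592 to 0.847). *Gabrd*, the subunit of extrasynaptic receptors, was at 0.454 and 0.792 FPKM with overlapping intervals. The rho subunit genes, known from the retina, were at most 0.157 FPKM in either library, and *Gabrr3* and *Gabrp* were listed at 0 in both.

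The 5 GABA-A subunits past the cutoff, *Gabra2*, *Gabra5*, *Gabrb1*, *Gabre* and *Gabrg3*, remained above 0 when all rows were rescaled, at 0.36, 0.76, 1.02, 0.93 and 0.80. The summed FPKM of the 19 genes was 13.8 in the control (10.7 to 16.8, the sums of the bounds) and 24.6 in Tcf7l2ΔHMG (20.8 to 28.2), a log2 ratio of 0.83, or 0.16 with all rows rescaled. By position in the files, for which the submitters' processing notes name the build mm9, 14 of the 19 genes lay in 4 groups of neighbours, of which those on chromosome 5 and the X chromosome are given here. On chromosome 5, from 71142286 (*Gabrg1*) to 72528483 (*Gabrb1*), *Gabrg1*, *Gabra2*, *Gabra4* and *Gabrb1* were at 3.41 and 6.27 FPKM in sum (log2 ratio 0.86). On the X chromosome, from 69502771 (*Gabre*) to 70087941 (*Gabrq*), *Gabre*, *Gabra3* and *Gabrq* were at 3.004 and 5.52 FPKM in sum (0.86). The summed level of both groups was thus higher in Tcf7l2ΔHMG by a similar ratio as deposited, while single genes within a group ranged widely, as between *Gabrg1* (0.01) and *Gabrb1* (1.71) on chromosome 5.

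GABA-B receptors are dimers of the subunits encoded by *Gabbr1*, which binds GABA, and *Gabbr2*, which couples to the G protein. *Gabbr1* was at 47.7 FPKM (46.1 to 49.8) in the control and 41.5 (40.0 to 43.3) in Tcf7l2ΔHMG, a log2 ratio of −0.20 (−0.32 to −0.09). *Gabbr2* was at 2.56 FPKM (2.28 to 2.85) and 4.39 (4.06 to 4.73), a log2 ratio of 0.75 (0.50 to 1.02) that dropped to 0.10 with all rows rescaled. *Gabbr1* thus was far above its partner in both libraries, with 94.9% of the GABA-B sum in the control and 90.4% in Tcf7l2ΔHMG.

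**Figure D3:**
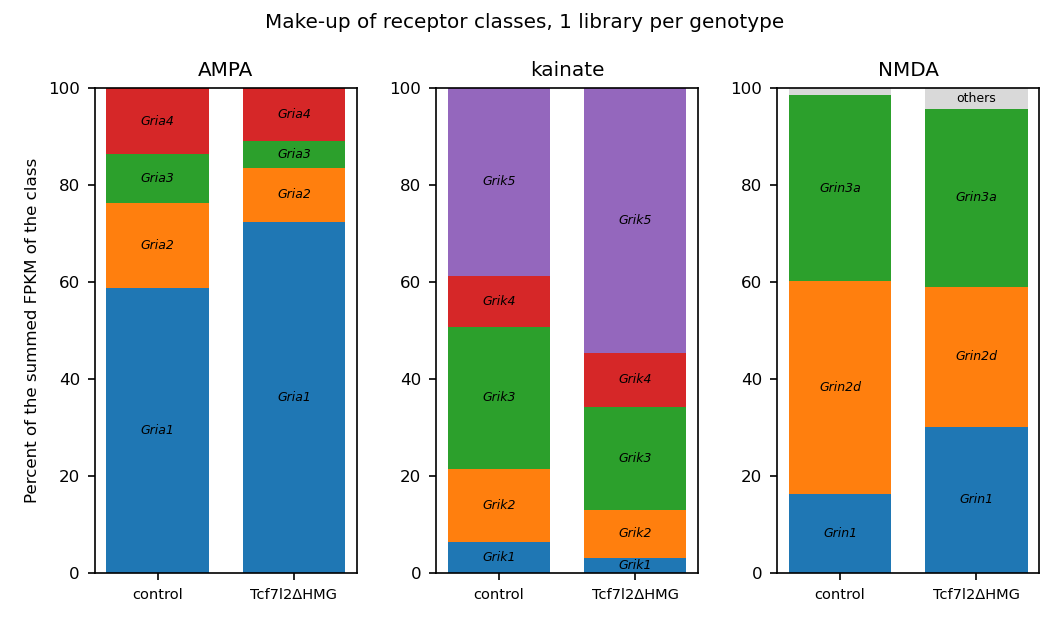
Percent of the summed FPKM of a class (y axis) contributed by each subunit in the control and Tcf7l2ΔHMG library (x axis), for AMPA, kainate and NMDA receptors; subunits under 5% in both libraries are drawn together in grey. *Gria1* takes 58.9% and 72.4% of the AMPA sum, *Grik5* 38.7% and 54.6% of the kainate sum, and *Grin1* 16.3% and 30.2% of the NMDA sum.

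Most genes of a list for the synthesis, transport and breakdown of GABA were higher in Tcf7l2ΔHMG past the cutoff. All 11 genes of that list reached 1 FPKM, and 8 were higher past the cutoff (72.7%, beside 15.4% of all genes) and none lower (median log2 ratio 0.65). With 1 FPKM in both libraries 7 of 10 were higher (12.2% of all such genes) and none lower. *Gad1* and *Gad2*, the enzymes that make GABA, were at 1.005 FPKM (0.682 to 1.41) and 1.36 (1.15 to 1.57) in the control and at 2.80 (2.48 to 3.14) and 3.12 (2.81 to 3.43) in Tcf7l2ΔHMG. *Slc32a1*, the vesicular GABA transporter of inhibitory neurons, was at 0.376 FPKM (0.245 to 0.516) and 2.44 (2.03 to 2.80), a log2 ratio of 2.41. Among the GABA uptake transporters, *Slc6a11* was at 12.96 and 32.0 FPKM (1.297) and *Slc6a13*, which meningeal cells also express, at 86.9 and 139.5 FPKM (0.68). The monoamine oxidase *Maob* (2.15 and 3.31 FPKM) and the aldehyde dehydrogenase *Aldh1a1* (82.7 and 130.1 FPKM) also passed the cutoff. The enzymes that break down GABA, *Abat* (36.9 and 41.7 FPKM) and *Aldh5a1* (9.76 and 10.7), did not pass it. The control value of *Aldh1a1* lay above its own interval (74.3 to 80.9). In the list for receptor anchoring and chloride transport, 11 of 13 genes reached 1 FPKM. Of these 3 were higher past the cutoff (27.3%, beside 15.4% of all genes) and 1 was lower (9.09%, beside 8.52%). *Slc12a5* reached 1 FPKM in Tcf7l2ΔHMG only and had to be higher there. With 1 FPKM in both libraries 2 of 10 were higher (12.2% of all such genes) and 1 was lower (7.22%). The chloride transporters, which set whether GABA excites or inhibits a cell, went opposite ways. *Slc12a2*, which loads cells with chloride, was at 65.3 FPKM in the control and 34.97 in Tcf7l2ΔHMG (−0.90), and *Slc12a5*, the chloride exporter of mature neurons, at 0.703 and 1.94 FPKM (1.35). The third gene that was higher beside *Slc12a5* and *Shisa7* was *Gabarap*, which traffics GABA-A receptors, at 211 and 376 FPKM, where the control value lay above its own interval (169 to 182). Glycine receptor genes were below 1 FPKM apart from *Glrb*, at 18.3 and 20.7 FPKM.

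Markers of several cell types also differed between the libraries. Of 8 neuronal markers 7 reached 1 FPKM, of which 5 were higher in Tcf7l2ΔHMG past the cutoff (71.4%, beside 15.4% of all genes) and none lower. These were *Rbfox3* (0.658 and 1.51 FPKM), *Snap25* (5.92 and 10.3), *Syt1* (1.07 and 3.64), *Tubb3* (12.7 and 22.01) and *Stmn2* (5.41 and 14.1). With 1 FPKM in both libraries 4 of 6 were higher (12.2% of all such genes). *Nefl* (12.99 and 15.4 FPKM) and *Nefm* (5.46 and 4.195) did not pass, and none of the 8 was at 0. Their summed level was 44.4 FPKM in the control and 71.7 in Tcf7l2ΔHMG, a log2 ratio of 0.69 beside 0.83 for the GABA-A subunits. All 8 meningeal fibroblast markers had a higher FPKM in Tcf7l2ΔHMG, 5 of them past the cutoff (62.5%, beside 15.4% of all genes), with none at 0. Their summed level was 6924 and 14137 FPKM, of which *Ptgds* alone made up 6009 and 12780. *Slc6a13*, among those past the cutoff, is also counted in the list for GABA synthesis, transport and breakdown. All 5 red blood cell genes were higher past the cutoff (100%, beside 15.4% of all genes), with a summed level of 252 and 631 FPKM. With 1 FPKM in both libraries 4 of 4 red blood cell genes were higher (12.2% of all such genes). *Hba-a1* and *Hba-a2* had the same values and bounds in each library (88.7 and 228 FPKM). They are not separate measurements, yet each is in these counts and in the sum, which are inflated by this. All 8 markers of myelinating OLs had a lower FPKM in Tcf7l2ΔHMG, 5 of them past the cutoff (62.5%, beside 8.52% of all genes), with none at 0. Of 8 OPC markers 6 had a lower FPKM in Tcf7l2ΔHMG, 5 of them with intervals apart (13.7% of all genes). The other 2, *Ptprz1* (57.8 and 74.1 FPKM) and *C1ql1* (27.2 and 34.6), were higher with intervals apart (20.0% of all genes). Both *C1ql1* values lay above their own intervals. *Neu4* (21.6 and 10.6 FPKM) alone passed the cutoff (12.5% lower, beside 8.52% of all genes), while the OPC sum was 268 and 256 FPKM. The part of these cell types in the higher GABA-A, *Grin1* and *Gabbr2* levels and in the lower *Grik1*, *Grik2*, *Grik3* and *Gria3* levels was not tested.

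**Figure D4:**
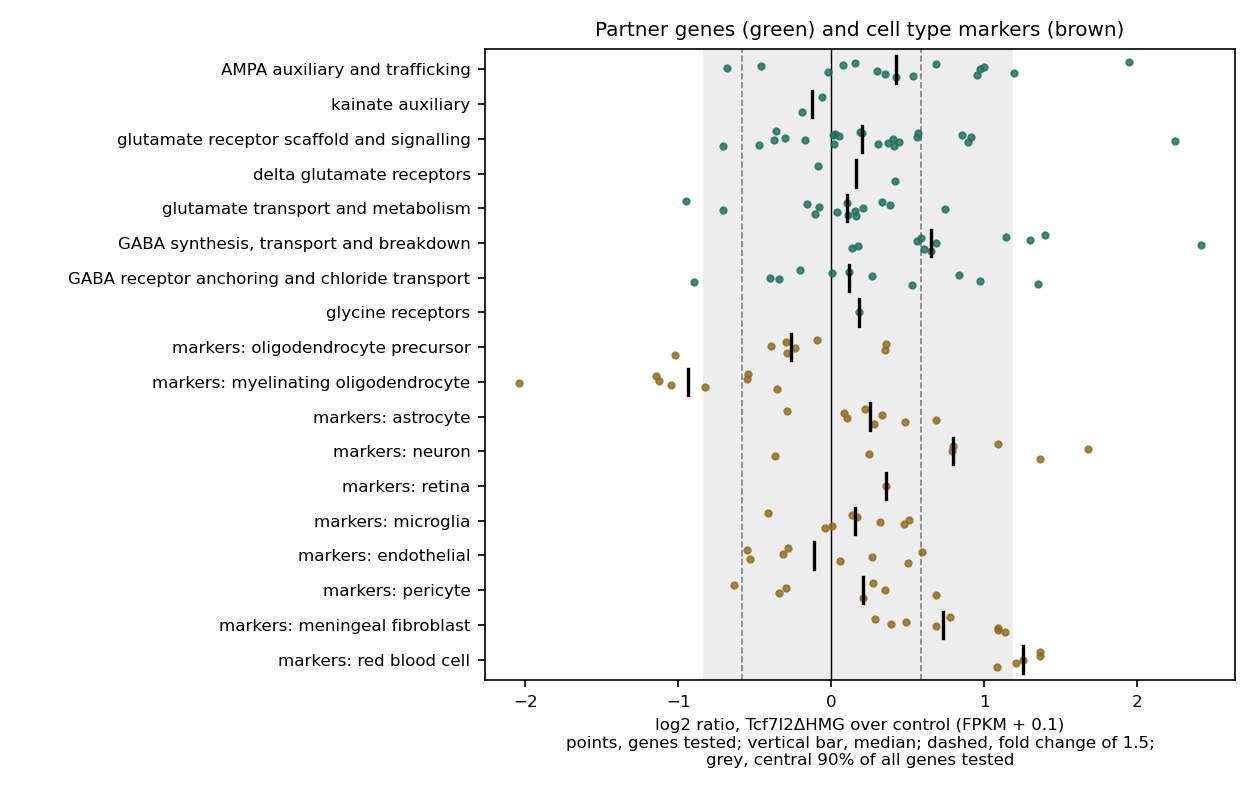
Log2 ratio of Tcf7l2ΔHMG to control (x axis) of single genes (points, at least 1 FPKM in 1 library) in lists of receptor partner genes (green) and cell type markers (brown); the black bar is the median of a list, dashed lines are a fold change of 1.5 and the grey band is the central 90% of all genes tested. Genes listed at 0 in 1 library are not drawn. The GABA synthesis and transport list (median 0.65) and the neuronal markers (median 0.79) lie to the right, and the myelinating OL markers (median −0.94) to the left.

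The promoters were searched because the deleted exon encodes the domain by which Tcf7l2 binds DNA. RefSeq start sites on GRCm38.p6 were given for 32 of the 45 genes (39 starts), and the 250 bases before each start were searched on both strands for TCAAAG, the core of TCF and LEF sites, and for ACAAAG, the core of many Sox sites. The 13 genes without a start in this table included *Gria1*, *Gria3*, *Grik1*, *Grin2a*, *Grin2b*, *Grin3a*, *Grm4*, *Grm5* and *Gabrd*. TCAAAG was found before 4 of the 39 starts (10.3%), beside 13.8% of 32851 starts of all genes, and ACAAAG before 3 (7.69%), beside 16.5%. The first was found at *Gabra3*, *Gabrb2* and *Gabrp* and the second at *Gabbr1*, *Gabra3* and *Grm6*. Neither was found at *Grik2* or *Grik3*, which were lower in Tcf7l2ΔHMG, nor at *Gabra2*, *Gabra5*, *Gabrb1*, *Gabre*, *Gabrg3*, *Grin1* or *Gabbr2*, which were higher. A match of these letters describes the sequence and is no evidence of binding, and no match says only that they are not in this window. Printed below, 5′ to 3′ up to the base before the start, are the stretches of *Grik2* (chr10:49788755-49789004, minus strand), as a subunit that was lower, of the neighbours *Gabrg3* (chr7:57387216-57387465, minus strand) and *Gabra5* (chr7:57510060-57510309, minus strand), as subunits that were higher, and of *Gabra3* (chrX:72656920-72657169, minus strand), which holds both motifs. Capitals mark the motif or its reverse complement.
Grik2: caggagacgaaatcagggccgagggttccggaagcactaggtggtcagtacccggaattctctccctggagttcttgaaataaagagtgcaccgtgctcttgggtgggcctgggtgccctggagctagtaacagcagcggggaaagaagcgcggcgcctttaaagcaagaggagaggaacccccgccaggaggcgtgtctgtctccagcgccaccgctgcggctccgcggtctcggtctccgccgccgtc
Gabrg3: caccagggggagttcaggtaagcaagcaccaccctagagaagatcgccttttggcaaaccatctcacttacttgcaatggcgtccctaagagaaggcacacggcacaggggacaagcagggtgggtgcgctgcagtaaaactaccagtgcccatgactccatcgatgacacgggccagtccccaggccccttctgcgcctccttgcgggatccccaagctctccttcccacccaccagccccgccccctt
Gabra5: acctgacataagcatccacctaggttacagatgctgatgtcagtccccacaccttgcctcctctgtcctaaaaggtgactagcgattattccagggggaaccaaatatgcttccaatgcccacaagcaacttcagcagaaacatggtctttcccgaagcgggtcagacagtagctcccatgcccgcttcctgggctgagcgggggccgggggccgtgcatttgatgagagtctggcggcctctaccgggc
Gabra3: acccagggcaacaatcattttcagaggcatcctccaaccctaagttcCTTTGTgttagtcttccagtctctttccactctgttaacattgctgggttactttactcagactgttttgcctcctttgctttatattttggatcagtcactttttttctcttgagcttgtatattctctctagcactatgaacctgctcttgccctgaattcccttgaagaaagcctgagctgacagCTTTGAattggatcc
In *Gabra3* the reverse complement of TCAAAG ends 9 bases before the start. G and C made up 62.8% of the bases in *Grik2*, 60.4% in *Gabrg3*, 56.4% in *Gabra5* and 42.4% in *Gabra3*.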

How the data were processed

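RNA was isolated from optic nerves and sequenced on an Illumina HiSeq. Reads had been mapped by the authors (TopHat, default settings), and Cufflinks had turned them into FPKM. Each row of a deposited table holds an FPKM, the interval Cufflinks put around it and a status. The submitters' processing notes name mm9 as the genome build, and tool versions and the strand of the library kit are not given in the sources used here. Merged gene names were split, FPKM was summed per symbol, and symbols with status OK in both libraries were compared as log2 of (Tcf7l2ΔHMG FPKM + 0.1) over (control FPKM + 0.1), which understates differences of low genes. Bounds of a ratio set the lower bound of 1 library against the upper bound of the other. The number of fragments behind a low value was taken from the width of its interval as if it held counting error only. Depth was the smallest number of fragments at which the bounds of unnamed rows shorter than 100 bases (those below their median) were whole multiples of 1 fragment, within 0.02 of a fragment. FPKM lay outside its own interval in 7.26% of named control rows with FPKM above 0 and 8.64% of such Tcf7l2ΔHMG rows, but for none of the receptor subunits. Some list and marker genes named above had such a value, and not each is marked. Named were all subunits with at least 1 FPKM or with intervals apart, list genes past the cutoff, and otherwise the highest genes of a list; other genes named were chosen after their values were seen. Some genes that the rule names are not reported here, but they are part of the counts and sums. Members and lists were chosen with earlier results of these data known. The counting was tested on simulated data. Scripts ran under Python 3.11.15 (numpy 2.4.6, pandas 2.3.3, matplotlib 3.10.9).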

Additional observations from a re-analysis of the deposited data

Results flagged for a closer look

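Rows without a gene name were not part of the comparisons. Of those of at least 200 bases that lay inside a receptor gene, the summed FPKM times length in kb, which is proportional to fragments over library size, was set beside that of the control. Of 12 subunits with such rows it was higher in Tcf7l2ΔHMG at 5 and lower at 7, with the widest gaps among the latter at *Grm7* (27.6 in the control and 1.08 in Tcf7l2ΔHMG) and *Gria2* (25.3 and 7.80). A level above the control is why 4 of the 5 are listed here. The sum in Tcf7l2ΔHMG was 8.23 at *Gria3* (9 rows) beside 5.20 in the control (4 rows), 2.82 at *Gabrg3* beside 0.761, 1.74 at *Grin1* beside 0.887, and 1.58 at *Grik1* (2 rows, and no row in the control). Unnamed rows are assembled per library, and the Tcf7l2ΔHMG library was 1.45 times as deep. Their part in the subunit levels was not tested.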

How the results depend on the processing

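No paired analysis was possible because there is 1 library per genotype. Under 9 changes of pseudocount, scale, status, row choice and name splitting, the 11 subunits past the cutoff kept their direction. They also stayed past it, except that with all rows rescaled to a sum of 1000000 4 of the 7 higher ones did. On that scale 18 subunits reached the filter of 1, of which 1 was higher and 11 were lower past the cutoff, with 485 and 7182 of all genes, and the median log2 ratio was −0.78 for subunits and −0.63 for all genes. The summed classes then had log2 ratios of −0.48 (AMPA), −0.88 (kainate), −0.62 (NMDA), −0.82 (metabotropic), 0.16 (GABA-A), −0.80 (GABA-B) and −0.53 (both GABA classes). Rescaling named rows only gave 11 higher subunits of 32 compared, with 2239 of all genes higher. Without a filter 45 subunits were compared and 14 were higher, with 3207 of 23853 genes higher. With 1 FPKM or more required in both libraries 4 of 20 were higher, with 1608 of 13195 genes higher. With 5 or more in either, 11 were compared and 0 were higher, with 1290 of all genes higher. All 7 subunits that were higher past the cutoff lie below 5 FPKM in both libraries. With a fold change of 2, 5 subunits were higher and 1 was lower, with 975 of all genes higher and 522 lower. The calls of *Grin1*, *Gabbr2*, *Gria3*, *Grik2* and *Grik3* thus depend on the cutoff of 1.5, and the depth of low GABA-A genes limits their ratios.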
